A study of Mus musculus with 20 samples.

Results

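The 8 libraries described here are mouse cell lines labelled PGC-ESC, stem cell lines that trace back to primordial germ cells (PGCs). They were chosen by column name, as the 5 lines without Bax (PGC-ESC BaxKO 1 to 5) and the 3 lines that lack both Puma and Noxa (PGC-ESC DKO 1 to 3), out of 20 libraries in the series. BaxKO lines carry the strain label C57Bl6J/129SvEvRoEp and DKO lines the label C57Bl6J, so genotype and strain label cannot be told apart between these groups. Each library is labelled as a cell line of its own. An EGFP reporter is read in all 8 lines, at 2946 to 3507 CPM (a gene's count scaled to the library total) in BaxKO and 8485 to 9722 CPM in DKO. Culture was feeder-free, in medium with LIF and inhibitors of GSK3 and MEK. How the PGC-ESC lines were derived, and how many embryos or clones they stand for, the sources used here do not give. For comparison, 6 embryonic stem cell (ESC) libraries carry the same pair of strain labels without PGC origin: 2 ESC BaxKO lines (C57Bl6J/129SvEvRoEp) and 4 wildtype ESC Host lines (C57Bl6J), the latter derived from the host embryos.

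Bax forms pores in the outer mitochondrial membrane and is an effector of the intrinsic pathway of apoptosis. Puma (gene symbol Bbc3) and Noxa (gene symbol Pmaip1) are BH3-only proteins that act upstream of it, partly under control of p53, and release Bax and Bak from inhibition. Primordial germ cells die by apoptosis when they stray from their route to the gonad, and they can become pluripotent lines in culture. Such lines express the transcription factors of ESCs. Imprints, X chromosome dosage and germ cell genes are the features by which germ cell origin is often judged.

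Library totals of the 8 lines ran from 14255399 to 32714219 counts. All 7 pluripotent stem cell markers were read in every line, summing to 5467 to 6168 CPM in BaxKO and 5143 to 5553 CPM in DKO. The 5 fibroblast and feeder markers summed to 1.71 to 15.6 CPM in BaxKO and 2.18 to 4.63 CPM in DKO, with Col1a1 the most abundant (0.649 to 11.8 and 1.45 to 3.44 CPM) and Col3a1 and Postn at 0 in all 8 lines. The libraries differed between the groups in other respects. Reads of Rn45s, the ribosomal RNA precursor, stood at 2044 to 5106 CPM in BaxKO and at 24395 to 45205 CPM in DKO. X-linked genes, measured against autosomal genes and relative to all 20 libraries, stood at 0.83, 0.81 and 0.73 on the log2 scale in BaxKO 1, 3 and 4. They stood at -0.12 and -0.15 in BaxKO 2 and 5 and at -0.22, -0.25 and -0.27 in DKO 1 to 3. Y-linked reads were present in BaxKO 2, BaxKO 5 and DKO 3 and were 0 in the other 5 lines. Short transcripts (the lowest quintile of genes by length) minus long transcripts (the highest quintile) gave negative log2 values in all 5 BaxKO lines (-0.34 to -0.09) and positive ones in DKO 1 and 3 (0.23 and 0.19), with DKO 2 apart at 0.86. For many of the genes and lists that lose their call without BaxKO 1, 3 and 4, this is stated below. That fit keeps only BaxKO 2 and 5 of the BaxKO group, which costs precision. A call lost in it does not by itself show that the difference rests on BaxKO 1, 3 and 4. Calls given without such a statement were not all kept.

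**Figure D1:**
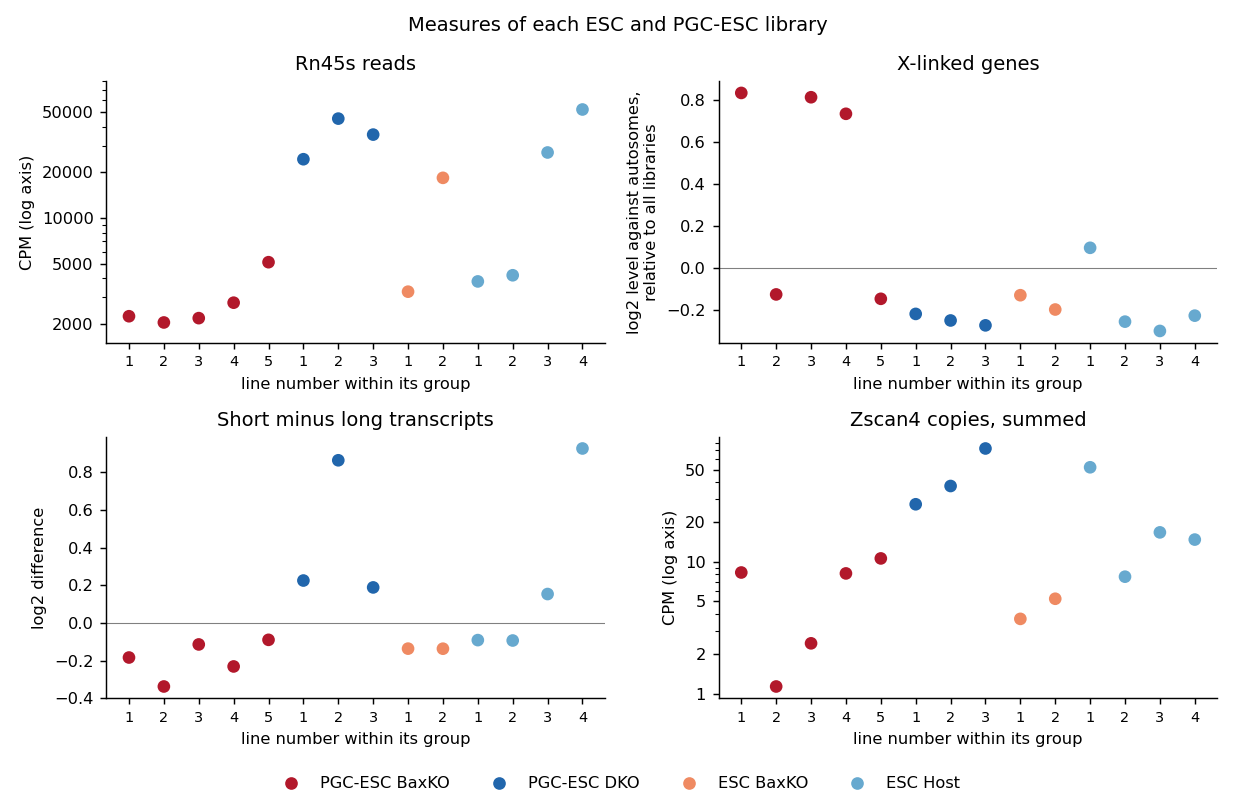
Rn45s reads (CPM, log axis), X-linked level (log2, against autosomes), short minus long transcripts (log2) and summed reads of the 5 tested Zscan4 copies (CPM, log axis) in each PGC-ESC and ESC library, 1 point a library. The PGC-ESC groups separate in Rn45s (up to 5106 CPM in BaxKO, from 24395 CPM in DKO) and in the transcript length measure, while X-linked levels separate BaxKO 1, 3 and 4 from the other lines.

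Of the targeted genes, Bax was nearly absent from the BaxKO lines, Pmaip1 was low in the DKO lines and in some BaxKO lines, and Bbc3 was read at like levels in both groups. Bax (chromosome 7, 45461695 to 45466903, build GRCm38) was at 2.02, 2.29, 1.83, 2.18 and 1.82 CPM in BaxKO 1 to 5 and at 335, 516 and 324 CPM in DKO 1 to 3. The groups lay far apart, with a log2 fold change -7.76 ± 0.28, adjusted p = 1.16e-11. This and all later tests are edgeR's quasi-likelihood test, adjusted by Benjamini-Hochberg over all tested genes, and a gene is called where its adjusted p is under 0.05. The fold change is BaxKO minus DKO throughout, so positive values are higher in BaxKO. Pmaip1 (chromosome 18, 66458604 to 66465558) was at 1.26, 4.35 and 3.35 CPM in the DKO lines. In BaxKO lines 1 to 5 it was at 43.4, 4.34, 25.3, 20.1 and 5.36 CPM, so lines 1, 3 and 4 were well above the DKO lines while line 2 lay within the DKO range. Its mean was 19.7 ± 16.1 CPM in BaxKO (SD, n = 5) and 2.99 ± 1.58 CPM in DKO (SD, n = 3). Pmaip1 passed the test (log2 fold change 2.60 ± 0.66, adjusted p = 0.0107), and without BaxKO 1, 3 and 4 it did not (adjusted p = 0.363). In the ESC lines, where neither group lacks Pmaip1, it stood at 9.54 and 6.27 CPM for BaxKO and 47.2, 52.7, 20.2 and 20.4 CPM for Host, so the ESC BaxKO lines were the lower ones (-2.19 ± 0.72, adjusted p = 0.0928). Bbc3 (chromosome 7, 16308398 to 16318334) was at 37.6, 28.2, 42.4, 31.3 and 36.8 CPM in BaxKO and 27.5, 49.2 and 38.6 CPM in DKO. The ranges overlapped and Bbc3 did not pass (log2 fold change -0.29 ± 0.22, adjusted p = 0.347). The deleted part of Bbc3 and of Pmaip1 is not stated in the labels, and a count per gene includes reads outside a deletion, so the Bbc3 count does not check the DKO label.

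Of the other BCL-2 family genes, few differed. Bak1, the other main pore-forming effector, was at 135, 104, 148, 131 and 111 CPM in BaxKO and 113, 115 and 96.5 CPM in DKO, with overlapping ranges (log2 fold change 0.05 ± 0.16, adjusted p = 0.858). Bcl2l1, which encodes the anti-apoptotic BCL-XL, was at 51.0, 53.6, 49.4, 50.6 and 59.9 CPM in BaxKO and 66.8, 75.0 and 86.7 CPM in DKO. All BaxKO lines were below all DKO lines, and Bcl2l1 was lower in BaxKO (log2 fold change -0.68 ± 0.10, adjusted p = 0.000386). In a fit with a term for libraries with over 10000 CPM of Rn45s (the Rn45s term) its adjusted p was 0.0577. It was called without BaxKO 1, 3 and 4 (adjusted p = 0.0203). BH3-only genes, the sensors of cell stress, numbered 10 tested, of which 2 were higher in BaxKO (12.2% of all genes were higher), Pmaip1 and Hrk, a neuronal death gene (log2 fold change 1.43 ± 0.40, adjusted p = 0.0171), and none was lower. Hrk stood at 8.59, 4.34, 7.58, 6.54 and 2.94 CPM in BaxKO and 2.12, 1.82 and 1.93 CPM in DKO, highest in BaxKO 1, 3 and 4 (adjusted p = 0.251 without these). Neither Pmaip1 nor Hrk was called with the Rn45s term (adjusted p = 0.413 and 0.662). Among 14 caspase and apoptosome genes 1 was called, the X-linked caspase inhibitor Xiap (log2 fold change 1.26 ± 0.28, adjusted p = 0.00598), which was not called without BaxKO 1, 3 and 4 (adjusted p = 0.0943). Of 26 genes of the p53 list, 5 were lower in BaxKO (Plk2, Mdm2, Trp73, Cdkn1a and Sesn1) and 1 was higher (Mdm4), with a list median of -0.26 beside 0.02 over all tested genes. The share called, 23.1%, is near the 23.6% of all genes, and none was called with the Rn45s term or with the X-linked covariate in 15 libraries. Mdm2, the ubiquitin ligase of p53, was at 179, 159.8, 183, 174 and 181 CPM in BaxKO and 198, 232 and 301 CPM in DKO (log2 fold change -0.63 ± 0.16, adjusted p = 0.0104). Plk2, a kinase induced by p53, was at 36.02, 42.2, 43.3, 44.4 and 56.6 CPM in BaxKO and 87.1, 100.3 and 180.0 CPM in DKO (log2 fold change -1.61 ± 0.30, adjusted p = 0.00198). Every BaxKO line was below every DKO line in both. Without BaxKO 1, 3 and 4, Plk2 was still called (adjusted p = 0.045) and the other 4 lower genes were not (0.0523 to 0.204).

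Across the transcriptome the groups differed widely. Of 16363 genes tested, 3858 (23.6%) were called at an adjusted p under 0.05, 1989 (12.2%) higher in BaxKO and 1869 (11.4%) lower. Of these, 1570 differed over 2-fold. On CPM rescaled by TMM (edgeR's scaling of libraries), the lowest BaxKO value was above the highest DKO value, or the reverse, for 4806 genes (29.4%). A fit with a term for the Rn45s set called 204 genes (1.25%), of which 189 were among the 3858. All BaxKO lines are in the low and all DKO lines in the high set. That fit thus takes the Rn45s effect from ESC BaxKO and ESC Host, the only groups with libraries in both sets. This costs precision, so a call lost with the term does not by itself show a smaller difference. A trend of each library's counts on transcript length and GC content can also be removed. Removing it together with that term gave 323 (1.97%), and removing it alone 3373 (20.6%). A fit of the 15 ESC and PGC-ESC libraries alone called 2826, and with a covariate for the X-linked level those 15 gave 939 (6.1%). The count was 1519 (9.28%) without BaxKO 1, 3 and 4 and 1552 (9.49%) without DKO 2. Without BaxKO 2 and 5 it was 4417 (27%), 2299 higher (14.1%) and 2118 lower (13%). Calls made in the full comparison and again with the Rn45s term, with the X-linked covariate in 15 libraries, with the length and GC trend removed, without BaxKO 1, 3 and 4 and without DKO 2 numbered 161, of which 64 were higher and 97 lower in BaxKO. These 161 are called stable below; the 5 alternatives were picked with the data known.

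The ESC BaxKO and ESC Host libraries, which share no library with the 8 PGC-ESC lines, gave 821 calls (5.02%). Calls in the same direction in both comparisons numbered 527, which is 13.7% of the PGC-ESC calls and 64.2% of the ESC calls, and 4 genes were called in opposite directions. Of the 3858 PGC-ESC calls, 90.7% had the same sign between the ESC groups, beside 70.5% of all tested genes. Both comparisons moved the same way with transcript length. The median log2 fold change of the shortest quintile was -0.30 in PGC-ESC and -0.27 in ESC. That of the longest quintile was 0.31 and 0.14. ESC Host 4 stood at 0.93 for short minus long transcripts and at 51924 CPM of Rn45s. The part of this trend in the shared signs was not tested. Among the 161 stable genes, 98 (60.9%) were also called in the same direction between ESC BaxKO and ESC Host. The fits with the Rn45s term and with the X-linked covariate, by which the 161 were picked, use those ESC libraries. This share is thus not independent of the choice of genes and is a description. In the PGC-ESC difference minus the ESC difference, a log2 effect of PGC origin that is equal under both strain labels cancels. What remains is Puma/Noxa genotype (DKO against wildtype Host) or an origin effect that differs between the BaxKO and the C57Bl6J lines. These cannot be told apart in it. The PGC-ESC difference minus the ESC difference passed for 13 genes (0.0794%), with 1598 genes at an unadjusted p under 0.05.

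**Figure D2:**
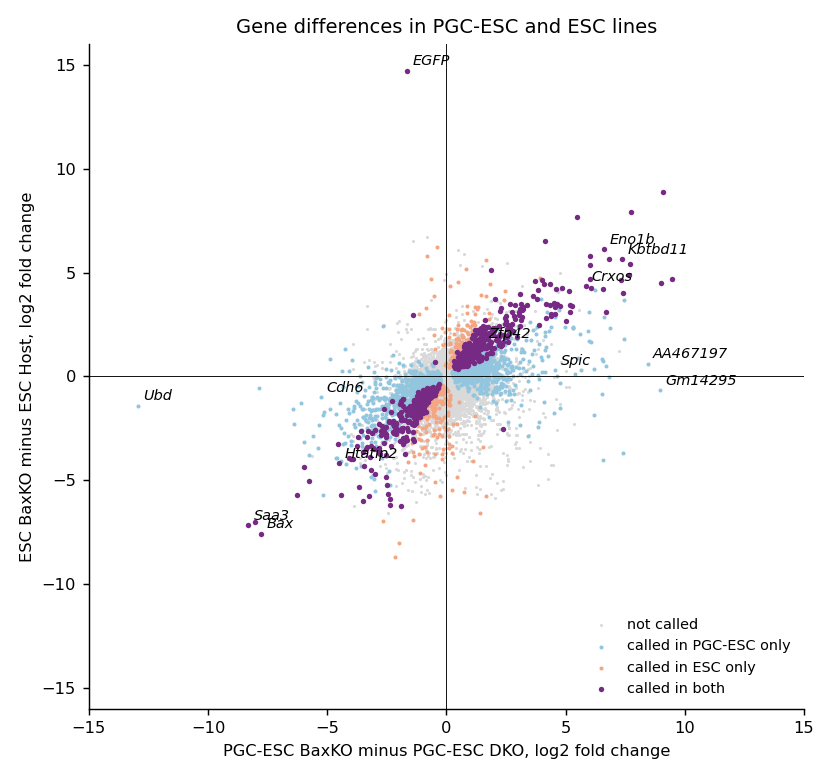
Log2 fold change of each tested gene between PGC-ESC BaxKO and PGC-ESC DKO (horizontal) and between ESC BaxKO and ESC Host (vertical), coloured by where the gene was called. Bax, Saa3 and Htatip2 lie low on both axes and Eno1b, Kbtbd11 and Crxos high on both, while Spic, AA467197 and Gm14295 differ between the PGC-ESC groups with ESC log2 fold changes between -0.67 and 0.61.

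The clearest difference in a pluripotency gene was Zfp42 (also called Rex1), a zinc finger gene long used as a marker of the naive state. Zfp42 (chromosome 8, 43295067 to 43307009) was at 489, 419, 490.0, 432 and 457 CPM in BaxKO 1 to 5 and at 153, 129 and 137 CPM in DKO 1 to 3. The lowest BaxKO line was thus above every DKO line (log2 fold change 1.55 ± 0.09, adjusted p = 1.65e-08). In the ESC lines it was at 461 and 433 CPM in BaxKO and 143, 154, 137 and 129.6 CPM in Host (1.59 ± 0.10, adjusted p = 2.15e-08). Zfp42 was called in all 24 alternatives, with log2 fold changes of 1.46 to 1.71. Other genes higher in BaxKO did not overlap between the groups either. Crxos, a homeobox gene of early embryos near Bbc3 (chromosome 7, 15882617 to 15904030), stood at 75.5, 137, 62.7, 88.4 and 46.4 CPM in BaxKO and 0.83, 2.03 and 1.09 CPM in DKO (log2 fold change 5.86 ± 0.58, adjusted p = 5.58e-06). Kbtbd11, of the kelch repeat family, stood at 35.6, 35.8, 48.7, 50.9 and 32.3 CPM and 0.154, 0.14 and 0.386 CPM (log2 fold change 7.38 ± 0.74, adjusted p = 6.36e-06). Both were called between the ESC groups too, Crxos at 4.33 ± 0.49, adjusted p = 6.67e-05 and Kbtbd11 at 5.64 ± 0.58, adjusted p = 2.74e-05.

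Several genes of this kind are retrocopies or members of repeated families, whose reads the counting could have split between near-identical copies, so their levels are uncertain. Eno1b, a copy of the glycolytic enolase gene Eno1 (chromosome 18, 48045335 to 48048379), was at 216, 406, 364, 242 and 259.9 CPM in BaxKO and 3.6, 1.33 and 2.96 CPM in DKO (log2 fold change 6.61 ± 0.54, adjusted p = 8.03e-07). Gm4737 was at 117, 112, 118, 114 and 106 CPM and 5.87, 4.7 and 4.06 CPM (log2 fold change 4.35 ± 0.33, adjusted p = 2.96e-07). The ribosomal protein pseudogene Rps18-ps4 was at 70.3, 68.5, 68.0, 70.3 and 74.7 CPM and 0.308, 0.982 and 0.515 CPM (log2 fold change 6.82 ± 1.21, adjusted p = 0.00141). All 3 were above every DKO line in each of the 5 BaxKO lines. For Rps18-ps4 the ESC BaxKO lines were split, at 0.542 and 90.7 CPM. Of other genes, the zinc finger gene Zfp607b, Ccnb1ip1 (a ubiquitin ligase needed for crossing over in meiosis), Bag3 (a co-chaperone of HSP70), Dnah8 (a dynein heavy chain) and Bhmt (betaine-homocysteine methyltransferase) were higher in BaxKO and called in all 24 alternatives. Ccnb1ip1 stood at 18.4, 27.9, 18.7, 14.2 and 13.6 CPM in BaxKO and 0.738, 0.701 and 0.965 CPM in DKO (log2 fold change 4.38 ± 0.32, adjusted p = 2.21e-07). Bhmt stood at 66.6, 36.1, 77.4, 93.4 and 20.4 CPM in BaxKO and 0.154, 0.701 and 0.837 CPM in DKO, with BaxKO 2 and 5 the lowest of their group (log2 fold change 6.71 ± 0.79, adjusted p = 5.86e-05). Zfp607b, whose neighbour Zfp607a is a paralog, stood at 40.7, 42.7, 44.2, 43.1 and 37.7 CPM and 0.8, 1.26 and 1.93 CPM (log2 fold change 4.86 ± 0.30, adjusted p = 3.01e-08). In none of these genes did a BaxKO line reach down to the DKO lines.

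**Figure D3:**
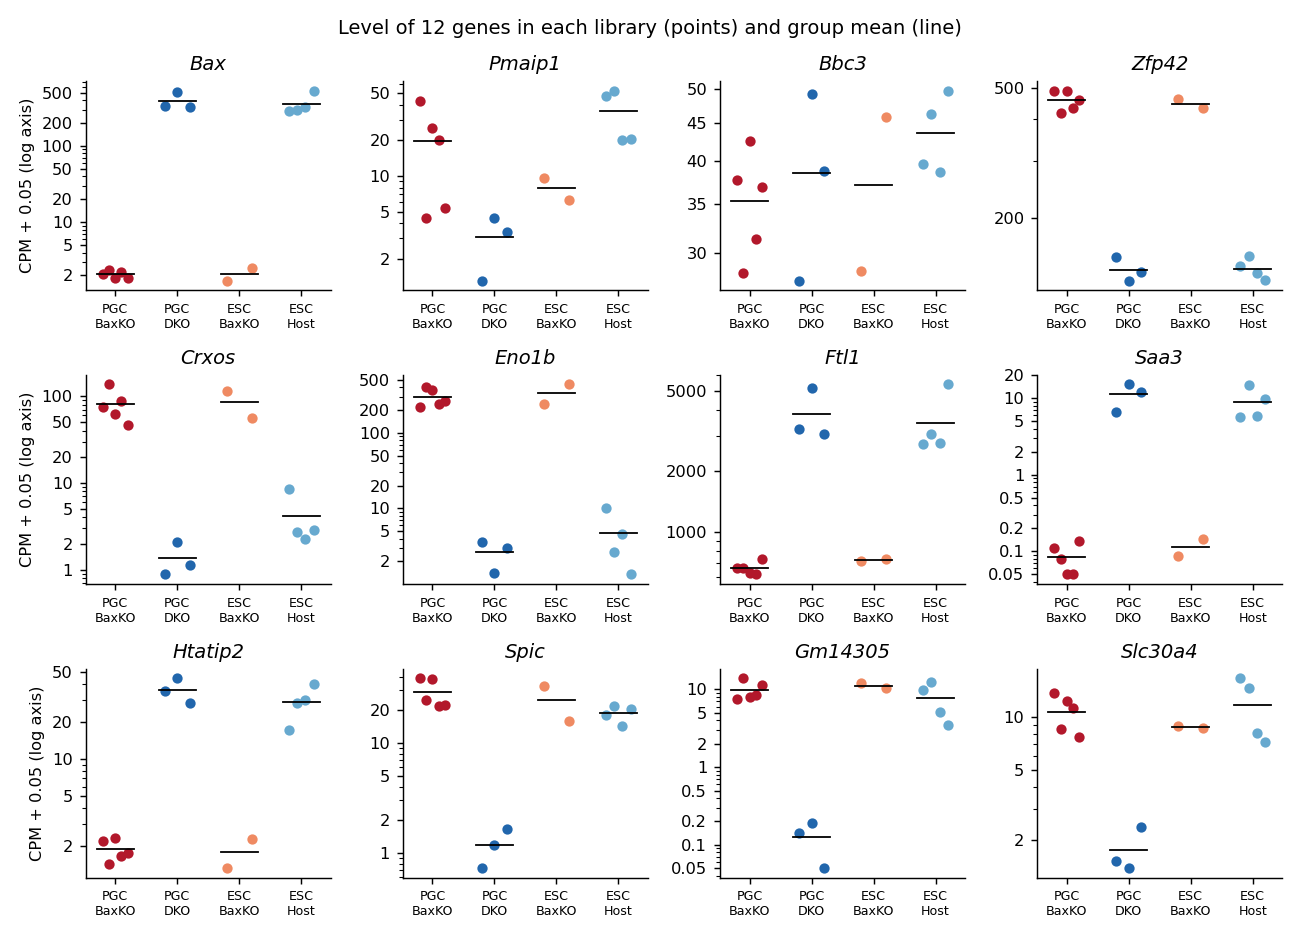
Level (CPM + 0.05, log axis) of 12 genes in each PGC-ESC and ESC library, with the group mean as a line. Bax, Ftl1, Saa3 and Htatip2 are low in BaxKO lines of both origins and Zfp42, Crxos and Eno1b are high in them, while Spic, Gm14305 and Slc30a4 are low in PGC-ESC DKO and not in ESC Host.

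Several of the most clearly separated genes that were lower in BaxKO lie near Bax. Within 5 Mb of Bax on chromosome 7, 166 genes were tested, of which 20 were higher and 44 lower in BaxKO (38.6%, beside 23.6% of all genes), and 13 were stable. Of the 64 called, 26 were called in the same direction between the ESC groups. Ftl1 (chromosome 7, 45457944 to 45459886), which encodes ferritin light chain, was at 659.8, 660.4, 624.98, 614 and 733 CPM in BaxKO and 3252, 5193 and 3071 CPM in DKO (log2 fold change -2.72 ± 0.24, adjusted p = 2.04e-06). Htatip2, an oxidoreductase gene (chromosome 7, 49759045 to 49774000), was at 2.15, 1.38, 2.25, 1.61 and 1.69 CPM in BaxKO and 35.5, 45.0 and 28.2 CPM in DKO (log2 fold change -4.51 ± 0.30, adjusted p = 7.77e-08). Saa3, an acute-phase serum amyloid gene (chromosome 7, 46711998 to 46719615), was at 0.0614, 0.0306, 0, 0 and 0.0865 CPM in BaxKO and 6.64, 15.2 and 12.2 CPM in DKO (log2 fold change -8.32 ± 0.61, adjusted p = 2.4e-07). No BaxKO line reached any DKO line in these 3 genes. Its neighbour Saal1 (chromosome 7, 46686108 to 46710690) differed less, at 26.3, 30.3, 31.4, 27.3 and 29.1 CPM and 62.3, 55.3 and 60.4 CPM (log2 fold change -1.20 ± 0.11, adjusted p = 1.76e-06). Ush1c, a scaffold gene of hair cells and gut (chromosome 7, 46195350 to 46238490), had 0 reads in BaxKO 1, 3 and 5 and 5.63, 11.2 and 4.18 CPM in DKO (log2 fold change -8.02 ± 0.74, adjusted p = 2.47e-06). All of these 5 genes were also lower in ESC BaxKO than in ESC Host, from Saal1 at -1.36 ± 0.14, adjusted p = 1.86e-05 to Saa3 at -7.15 ± 0.84, adjusted p = 8.94e-05. In both origins the Bax deletion and the C57Bl6J/129SvEvRoEp label come together and cannot be told apart. Within 5 Mb of Bbc3, 12 genes were higher and 15 lower of 114 tested (23.7%), and within 5 Mb of Pmaip1, 8 were higher and 5 lower of 66 (19.7%), shares near the 23.6% of all genes.

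Away from chromosome 7, genes lower in BaxKO included several with near-zero levels in the BaxKO lines. Ubd, a ubiquitin-like gene induced by interferon (chromosome 17, 37193892 to 37196101), had 0 reads in all 5 BaxKO lines and 26.1, 47.2 and 36.04 CPM in DKO. With 3 counts over the BaxKO group as the floor, it was at least 1293-fold lower (adjusted p = 0.000176). In the ESC BaxKO lines Ubd was at 19.11 and 0 CPM, so it was present in 1 of those lines, and in ESC Host at 20.03, 30.9, 18.5 and 26.5 CPM. Cdh6, a cadherin gene, was at 0.184, 0.122, 0.314, 0.605 and 0.303 CPM in BaxKO and 11.01, 10.5 and 10.7 CPM in DKO (log2 fold change -5.28 ± 0.54, adjusted p = 7.6e-06). ESC Host was low as well, at 1.14, 0.748, 0.124 and 0.149 CPM, so that Cdh6 was high in the PGC-ESC DKO lines alone of these 4 groups. The PGC-ESC difference minus the ESC difference did not pass for Cdh6 (-4.27 ± 0.95, adjusted p = 0.207). Capn11, a testis calpain gene, was at 0.245, 0.336, 0.157, 0.0807 and 0.0865 CPM and 6.58, 11.2 and 10.3 CPM (log2 fold change -5.77 ± 0.57, adjusted p = 5.58e-06). Efnb2, a ligand of Eph receptors, was at 2.45, 2.11, 3.14, 2.18 and 4.45 CPM and 14.2, 11.4 and 12.4 CPM (log2 fold change -2.31 ± 0.21, adjusted p = 2.04e-06). In all of these, each BaxKO line was below each DKO line. The fibrocystin gene Pkhd1 (log2 fold change -3.57, adjusted p = 1.76e-06) and Gc, the vitamin D binding protein gene (log2 fold change -3.72, adjusted p = 2.15e-06), were lower too.

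Genes of the two-cell-like state were lower in BaxKO than in DKO, all but 1 of those measured. This state is a rare, passing condition of cultured stem cells in which genes of the early embryo, such as Zscan4 and the transcription factor Dux, are on. Of 23 genes listed, 19 were in the table and passed the filter on low counts, and of these 18 were lower in BaxKO and none higher (11.4% of all genes were lower), with a median log2 fold change of -3.03 beside 0.02 over all tested genes. In all 18 every BaxKO line was below every DKO line on TMM-scaled CPM, as for 14.8% of all genes. The filter ran over all 20 libraries, and a count over the members that passed it is a description. The reads of the 5 tested Zscan4 copies, whose sequences are so alike that reads may be split between them, summed to 8.28, 1.13, 2.40, 8.15 and 10.6 CPM in BaxKO 1 to 5 and to 27.3, 37.5 and 72.3 CPM in DKO 1 to 3. The 5 Usp17l copies, deubiquitinase genes of the same state, summed to 4.23, 0.672, 0.836, 4.72 and 4.67 CPM and to 14.98, 17.1 and 37.8 CPM. DKO 3 was the highest and BaxKO 2 and 3 the lowest in both sums. In these bulk libraries fewer cells in the state and less RNA per cell cannot be told apart. Promoters of 4 of these genes are shown as examples of copies with like sequences within a family. Their part in the difference was not tested. They are the 250 bases before the transcript start in RefSeq on GRCm38.p6, read 5′ to 3′ on the gene's strand, with the motif TATAAA in capitals.
Zscan4c, chr7:11005495-11005744, + strand: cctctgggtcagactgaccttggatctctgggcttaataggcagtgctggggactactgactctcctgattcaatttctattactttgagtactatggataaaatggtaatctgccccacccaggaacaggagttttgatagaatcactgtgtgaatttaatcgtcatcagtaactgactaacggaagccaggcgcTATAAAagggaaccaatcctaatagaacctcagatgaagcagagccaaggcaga
Zscan4f, chr7:11397665-11397914, + strand: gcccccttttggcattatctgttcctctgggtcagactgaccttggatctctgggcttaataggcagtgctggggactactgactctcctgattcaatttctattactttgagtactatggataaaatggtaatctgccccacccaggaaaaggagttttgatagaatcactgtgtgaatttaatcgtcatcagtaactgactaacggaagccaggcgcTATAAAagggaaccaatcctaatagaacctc
Usp17lc, chr7:103416446-103416695, + strand: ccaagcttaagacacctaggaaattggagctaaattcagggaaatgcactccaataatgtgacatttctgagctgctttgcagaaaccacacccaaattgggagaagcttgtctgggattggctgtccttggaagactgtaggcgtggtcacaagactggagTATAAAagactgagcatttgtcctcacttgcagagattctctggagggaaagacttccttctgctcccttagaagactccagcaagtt
Usp17ld, chr7:103252506-103252755, - strand: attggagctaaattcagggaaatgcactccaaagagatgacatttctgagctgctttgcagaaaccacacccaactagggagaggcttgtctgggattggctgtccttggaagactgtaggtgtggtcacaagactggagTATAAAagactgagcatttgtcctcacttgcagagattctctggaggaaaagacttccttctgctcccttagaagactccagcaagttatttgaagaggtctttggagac
TATAAA, searched on both strands, was in 7 of the 10 promoters of tested two-cell-like genes that RefSeq's table holds, and in 13.0% of all 27025 promoters. All 7 belong to Zscan4 or Usp17l copies, so they do not count as independent promoters. Aligned end to end, the Zscan4c and Zscan4f promoters were identical at 99.6% of aligned bases, those of Usp17lc and Usp17ld at 96.1%, and those of Zscan4c and Usp17ld at 55.8%.

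Zscan4c was at 2.58, 0.397, 0.836, 1.74 and 2.9 CPM in BaxKO 1 to 5 and 7.81, 9.54 and 18.4 CPM in DKO 1 to 3 (log2 fold change -2.98 ± 0.58, adjusted p = 0.00251). Tcstv1, another gene of this state, was at 0.123, 0.153, 0.157, 0.323 and 0.216 CPM and 0.923, 3.86 and 4.7 CPM (log2 fold change -4.10 ± 0.57, adjusted p = 0.000221). Dux, which switches the others on, was read at 0.0614, 0.0611, 0.0523, 0.121 and 0.0865 CPM in BaxKO and 0.338, 0.421 and 0.386 CPM in DKO (log2 fold change -2.37 ± 0.77, adjusted p = 0.0354), which is a handful of reads in each line. The member that was not called was the translation factor gene Eif1a, which most cells express (log2 fold change -0.03, adjusted p = 0.887). Of the 18, 14 were called without BaxKO 1, 3 and 4 (4.03% of all genes were lower in that fit), 16 without DKO 2 (4.63%), 17 with the length and GC trend removed (10.5%) and 12 with the X-linked covariate in 15 libraries (2.88%). With the Rn45s term 3 were called, Tcstv1, Spz1 and Usp17le (0.752% of all genes), while the list's median was -3.43. Between ESC BaxKO and ESC Host 3 members were lower and none higher, with a median of -2.60. The ESC lines spread widely, and the Zscan4 copies summed to 3.68 and 5.24 CPM in ESC BaxKO and to 52.1, 7.70, 16.7 and 14.7 CPM in ESC Host.

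**Figure D4:**
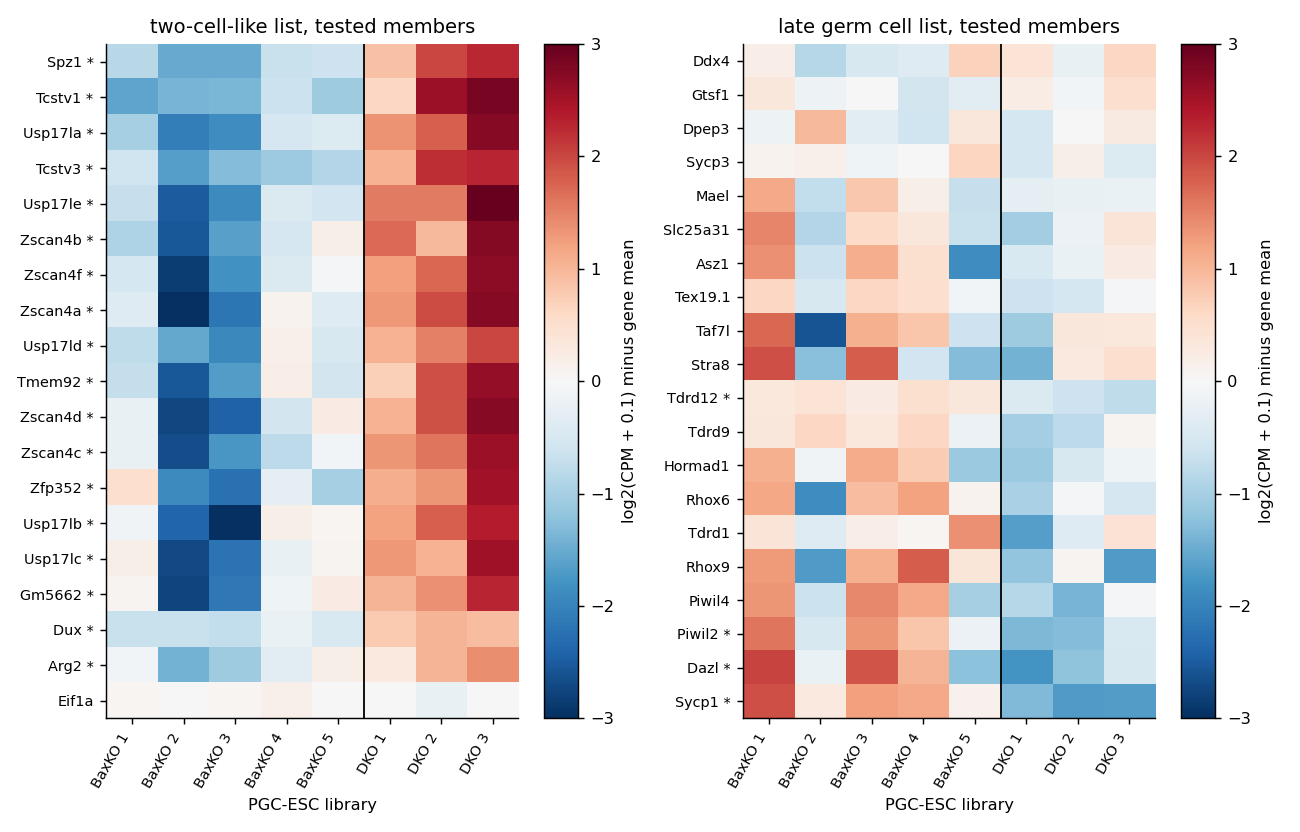
Level of each tested member of the two-cell-like list (left) and the late germ cell list (right) in the 8 PGC-ESC libraries, as the log2 of CPM plus a small constant, minus the gene's mean over them (red above, blue below the mean); an asterisk marks a called gene. The two-cell-like genes other than Eif1a are above their mean in the 3 DKO lines and lowest in BaxKO 2 or 3 in most cases, and of the late germ cell genes Sycp1, Piwil2 and Dazl are highest in BaxKO 1, 3 and 4.

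Of 12 core pluripotency factors tested, 3 were lower in BaxKO (Dppa4, Utf1 and Pou5f1) and 1 was higher (Zfp42), which is 33.3% beside 23.6% of all genes. The 3 lower genes were not called without BaxKO 1, 3 and 4 (adjusted p 0.0691 to 0.139) or with the Rn45s term, and Zfp42 was. Dppa4 stood at 56.7, 58.3, 57.9, 58.3 and 60.7 CPM in BaxKO 1 to 5 and at 69.2, 79.8 and 82.5 CPM in DKO 1 to 3. Sox2 was at 921, 824, 924, 891 and 753 CPM in BaxKO and 828, 743 and 816 CPM in DKO (log2 fold change -0.05 ± 0.14, adjusted p = 0.828), and Nanog at 1163, 761, 1090.1, 920.2 and 701 CPM and 768, 822 and 876 CPM (log2 fold change 0.01 ± 0.25, adjusted p = 0.994). Their ranges overlapped. Pou5f1, which encodes Oct4, was at 1306, 1153, 1321, 1306 and 1282 CPM in BaxKO and 1372, 2072 and 1528 CPM in DKO (log2 fold change -0.55 ± 0.18, adjusted p = 0.0354). DKO 2, the line with the most short-transcript reads, was the highest, and Pou5f1 had an adjusted p of 0.398 with the length and GC trend removed. Utf1, a chromatin factor of pluripotent cells, was at 22.3, 41.7, 15.4, 19.13 and 56.1 CPM in BaxKO and 104, 79.8 and 107 CPM in DKO (log2 fold change -1.80 ± 0.40, adjusted p = 0.00519). Of 20 naive pluripotency genes, 4 were higher in BaxKO (Zfp42, Spic, Tcl1 and Prdm14) and none lower, 20% beside 23.6% of all genes called, with a median of 0.05. Tcl1, a coactivator of the kinase AKT, was at 113, 103, 97.2, 120.5 and 81.0 CPM in BaxKO and 56.2, 64.5 and 31.2 CPM in DKO (log2 fold change 0.84 ± 0.27, adjusted p = 0.0322), and its adjusted p was 0.178 without BaxKO 1, 3 and 4. It was called in 4 of the 8 fits that leave out 1 line each. Of 15 formative and primed epiblast genes 1 was higher (Otx2, log2 fold change 1.87, adjusted p = 0.0372) and 2 were lower (Sall2 and Zic2), 20% in all. None of the 3 was called without BaxKO 1, 3 and 4 (adjusted p = 0.145, 0.0778 and 0.106), and Otx2 was called in 3 of the 8 fits with 1 line left out. Of 16 genes that respond to FGF and ERK none was higher and 3 were lower (Spry1, Etv1 and Spry2), 18.8% beside 23.6% of all genes called. Without BaxKO 1, 3 and 4 Spry1 was called and Etv1 and Spry2 were not. Spry2 was called in 4 of the 8 fits with 1 line left out.

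The early and late germ cell genes that were called were all higher in BaxKO, and several were highest in BaxKO 1, 3 and 4, the lines with raised X-linked levels. The 20 late germ cell genes included 4 higher in BaxKO, Sycp1, Tdrd12, Piwil2 and Dazl, and none lower. That is 20%, beside 12.2% of all genes higher and 23.6% called in either direction. With BaxKO 2 and 5 left out 10 were higher (14.1% of all genes), and without BaxKO 1, 3 and 4 2 were, Sycp1 and Tdrd12 (5.25%). The list median was 0.74, but -0.083 without BaxKO 1, 3 and 4. It was -0.22 with the X-linked covariate in 15 libraries and -0.51 between the ESC groups. Sycp1, a component of the synaptonemal complex that joins chromosomes in meiosis, was at 16.1, 5.04, 9.77, 9.2 and 4.5 CPM in BaxKO 1 to 5 and 1.6, 1.19 and 1.22 CPM in DKO 1 to 3 (log2 fold change 2.54 ± 0.44, adjusted p = 0.00122). All BaxKO lines were above all DKO lines, and Sycp1 kept its call without BaxKO 1, 3 and 4 (adjusted p = 0.0179). Dazl, an RNA-binding protein of germ cells, was at 141, 29.8, 128, 70.0 and 14.6 CPM in BaxKO and 9.81, 14.9 and 24.5 CPM in DKO (log2 fold change 2.07 ± 0.64, adjusted p = 0.0274), with BaxKO 2 and 5 near the DKO lines (adjusted p = 0.728 without BaxKO 1, 3 and 4). Piwil2, of the piRNA pathway, was at 28.5, 6.66, 23.8, 16.8 and 8.34 CPM and 3.63, 3.72 and 6.76 CPM (log2 fold change 1.68 ± 0.39, adjusted p = 0.00703; without BaxKO 1, 3 and 4, adjusted p = 0.184). Tdrd12, a tudor domain gene of the same pathway, varied less, at 224, 239, 212, 251 and 228 CPM in BaxKO and 133, 115 and 106 CPM in DKO (log2 fold change 0.80 ± 0.15, adjusted p = 0.00187). None of the 4 was called with the Rn45s term (adjusted p 0.151 to 0.478). Of 6 germ cell markers used to check cell identity 1 was called, Dazl. Without passing, Tfap2c and Ddx4 had negative log2 fold changes, and Prdm1, Nanos3 and Dnd1 positive ones. The promoter of Sycp1, the late germ cell gene with the largest fold among those called, is shown with the E-box CACGTG in capitals, as the 250 bases before its RefSeq start on GRCm38.p6.
Sycp1, chr3:102936101-102936350, - strand: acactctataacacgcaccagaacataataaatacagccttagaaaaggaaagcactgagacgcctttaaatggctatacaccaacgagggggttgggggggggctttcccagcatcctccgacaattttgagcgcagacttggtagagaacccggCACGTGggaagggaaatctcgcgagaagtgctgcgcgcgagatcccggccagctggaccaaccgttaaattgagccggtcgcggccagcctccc
CACGTG, which reads the same on both strands, was in 9 of 17 promoters of tested late germ cell genes and in 6.05% of all promoters. Of the called genes with an entry, Sycp1 had it and Tdrd12 and Dazl did not.
Of 15 early germ cell genes 3 were higher in BaxKO (20%), and none was called with the Rn45s term. Kit, the receptor that PGCs need to survive and migrate, was at 315, 431, 303, 280.1 and 321 CPM in BaxKO and 167, 120.0 and 160.1 CPM in DKO (log2 fold change 0.99 ± 0.19, adjusted p = 0.00229), and it was higher in ESC BaxKO than in ESC Host as well (0.99 ± 0.21, adjusted p = 0.0114). Itgb3, an integrin gene and surface marker of PGCs, was at 24.2, 3.97, 13.7, 13.1 and 4.63 CPM and 2.83, 3.3 and 3.73 CPM (log2 fold change 1.68 ± 0.48, adjusted p = 0.0199), with BaxKO 2 and 5 just above the DKO lines (adjusted p = 0.664 without BaxKO 1, 3 and 4). Prdm14, a regulator of PGC specification and naive pluripotency, was at 126, 73.7, 144, 100.77 and 60.7 CPM and 54.3, 46.0 and 57.1 CPM (log2 fold change 0.78 ± 0.27, adjusted p = 0.0462). Prdm14 was called in 2 of the 8 fits with 1 line left out and not without BaxKO 1, 3 and 4 (adjusted p = 0.619).

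X-linked genes followed the same split of the BaxKO lines. Of 633 X-linked genes tested, 229 were higher in BaxKO and 9 lower (37.6%), with a median log2 fold change of 0.78. Without BaxKO 1, 3 and 4, 32 were higher and 20 lower, with a median of 0.06. With the X-linked covariate in 15 libraries 21 were higher (3.22% of all genes) and 19 lower. Medians of the 19 autosomes ran from -0.09 on chromosome 7 to 0.09 on chromosome 1. Klhl13, an X-linked adaptor of a ubiquitin ligase, was at 271, 88.6, 213, 193 and 56.1 CPM in BaxKO 1 to 5 and 34.9, 24.1 and 36.3 CPM in DKO (log2 fold change 2.20 ± 0.50, adjusted p = 0.00602). Atrx, a chromatin remodeller gene, was at 485, 347, 452, 529.5 and 253 CPM and 183, 144 and 214 CPM (log2 fold change 1.04 ± 0.25, adjusted p = 0.00883). Kdm5c, a histone demethylase gene that escapes X inactivation, was at 453, 264, 441, 439 and 232 CPM and 215, 139.7 and 219.9 CPM (log2 fold change 0.77 ± 0.21, adjusted p = 0.0148). In each of the 3 genes BaxKO 1, 3 and 4 were the highest lines, and the adjusted p without them was 0.139, 0.16 and 0.407. DKO 1 and 2 had neither Y-linked reads nor raised X-linked levels.

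A small set of genes was low in the PGC-ESC DKO lines and not in PGC-ESC BaxKO, ESC BaxKO or ESC Host. In the 6 genes below every PGC-ESC DKO line was below every line of the other 3 groups. The ETS factor gene Spic (chromosome 10, 88675269 to 88683023) was at 38.8, 24.3, 38.2, 21.6 and 22.3 CPM for PGC-ESC BaxKO lines and 0.677, 1.12 and 1.61 CPM for PGC-ESC DKO lines (log2 fold change 4.57 ± 0.38, adjusted p = 4.55e-06). In ESC BaxKO it was at 32.9 and 15.8 CPM and in ESC Host at 18.0, 21.8, 14.3 and 20.4 CPM, and the PGC-ESC difference minus the ESC difference passed (4.26 ± 0.52, adjusted p = 0.00209). Gm14305, a zinc finger gene of a repeated cluster on chromosome 2 (chromosome 2, 176708353 to 176721813), was at 7.42, 13.9, 8.05, 8.35 and 11.5 CPM for PGC-ESC BaxKO lines and 0.0923, 0.14 and 0 CPM for PGC-ESC DKO lines, against 9.92, 12.5, 5.04 and 3.38 CPM in ESC Host (6.21 ± 0.85, adjusted p = 0.00241). Gm14295 of the same cluster was at 2.95, 2.45, 2.3, 2.42 and 2.68 CPM in BaxKO and had 0 reads in all 3 DKO lines, so it was at least 52.6-fold higher in BaxKO (the floor being 3 counts over the DKO group). Gm14410 (log2 fold change 2.75 ± 0.25, adjusted p = 2.15e-06) and Gm14393 (log2 fold change 2.09 ± 0.31, adjusted p = 0.000417) were higher in BaxKO too and Gm14403 lower, so that of 31 zinc finger genes listed, 11 were in the table and 9 tested, 4 of them higher and 1 lower. Copies in this cluster are near-identical, and the assignment of their reads is uncertain. A pair of neighbouring genes elsewhere on chromosome 2 had the same profile. AA467197 (chromosome 2, 122637887 to 122641076) was at 21.4, 8.38, 19.9, 15.1 and 8.82 CPM for PGC-ESC BaxKO lines and 0, 0.0701 and 0.0644 CPM for PGC-ESC DKO lines, against 11.7, 19.7, 7.64 and 8.9 CPM in ESC Host (7.82 ± 0.82, adjusted p = 0.000165 for the PGC-ESC minus the ESC difference). The zinc transporter gene Slc30a4 (chromosome 2, 122681233 to 122702663) was at 13.6, 8.53, 12.3, 11.1 and 7.61 CPM and 1.48, 1.33 and 2.32 CPM, against 16.5, 14.5, 8.07 and 7.16 CPM in ESC Host (2.94 ± 0.41, adjusted p = 0.00256). Spic, Gm14305, Gm14295, Gm14410, AA467197 and Slc30a4 were called between the PGC-ESC groups in all 24 alternatives.

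Imprinted genes, whose expression depends on the parent of origin, differed in both directions. Of 21 tested paternally expressed genes 1 was higher in BaxKO and 5 were lower, and of 18 maternally expressed genes 2 were higher and 2 lower, shares of 28.6% and 22.2% beside 23.6% of all genes. Inpp5f, a phosphatase gene with an imprinted transcript, was at 15.1, 13.7, 13.5, 13.8 and 13.1 CPM in BaxKO and 3.66, 5.26 and 4.57 CPM in DKO (log2 fold change 1.46 ± 0.21, adjusted p = 0.000285), the only stable gene among these imprinted genes. Igf2r, the receptor that clears IGF2, was at 193, 187, 183, 189 and 117 CPM and 53.9, 47.0 and 62.9 CPM (log2 fold change 1.51 ± 0.33, adjusted p = 0.00542). Igf2 itself, a growth factor gene, was low in all lines, at 0.736, 0.183, 0.366, 0.363 and 0.476 CPM and 0.677, 1.96 and 3.28 CPM (log2 fold change -2.37 ± 0.66, adjusted p = 0.0169). Cdkn1c, a cell cycle inhibitor gene, was at 1.1, 2.66, 1.46, 1.82 and 2.77 CPM and 2.46, 4 and 5.28 CPM (log2 fold change -1.10 ± 0.36, adjusted p = 0.0352). Without BaxKO 1, 3 and 4, Igf2r, Igf2 and Cdkn1c were not called (adjusted p = 0.0539, 0.0842 and 0.322), and Cdkn1c was called in 3 of the 8 fits with 1 line left out. Among 13 genes of DNA methylation (23.1% called), Tet3 was higher in BaxKO (log2 fold change 1.63, adjusted p = 0.0313) and Dnmt3l and Zfp57, which guards imprints, were lower. Dnmt3l, a cofactor of the de novo methyltransferases, was at 6.14, 30.3, 8, 13.2 and 26.0 CPM in BaxKO 1 to 5 and 42.1, 41.5 and 109.9 CPM in DKO (log2 fold change -2.06 ± 0.54, adjusted p = 0.0125); BaxKO 1, 3 and 4 were its lowest lines. None of the 3 was called without those lines (adjusted p = 0.158 for Dnmt3l, 0.324 for Zfp57 and 0.539 for Tet3). Of the 8 fits with 1 line left out, Tet3 was called in 3 and Zfp57 in 2.

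Other lists are given beside the 23.6% of all genes called. Of 12 trophoblast genes 4 were lower in BaxKO and none higher (33.3%), among them Eomes, a T-box factor gene (log2 fold change -1.93 ± 0.27, adjusted p = 0.000242), which was at 3.56, 2.81, 2.46, 2.74 and 4.89 CPM in BaxKO and 12.7, 9.47 and 11.5 CPM in DKO. Other trophoblast markers had positive values without passing, Cdx2 with a log2 fold change 1.90 ± 0.74, adjusted p = 0.0702 and Tfap2a with a log2 fold change 1.15 ± 0.43, adjusted p = 0.058. The 4 trophoblast markers used to check cell identity summed to 21.6 to 61.1 CPM in BaxKO and 16.5 to 28.6 CPM in DKO, and without BaxKO 2 and 5 2 list members were higher and 6 lower. Of 20 interferon and MHC class I genes 4 were higher (Oas1g, Oas1a, H2-Q4 and H2-K1) and 2 lower (Bst2 and Psmb8), 30% in all. Oas1g, an antiviral sensor gene, was at 14.9, 12.7, 12.7, 12.4 and 9.69 CPM and 1.57, 2.95 and 1.8 CPM (log2 fold change 2.41 ± 0.44, adjusted p = 0.00165). Of 20 glycolysis genes 3 were higher, the glucose transporters Slc2a1 and Slc2a3 and the lactate dehydrogenase gene Ldha, and 1 was lower, Pfkm (20% in all). Slc2a3 was at 1679, 1593, 1570.1, 1911 and 1262 CPM and 671, 527 and 725 CPM (log2 fold change 1.16 ± 0.29, adjusted p = 0.00929; without BaxKO 1, 3 and 4, adjusted p = 0.0808). The laminin gene Lama1 was higher (log2 fold change 1.63, adjusted p = 0.0063) and the matrix gene Sparc lower (log2 fold change -0.83, adjusted p = 0.00559; without BaxKO 1, 3 and 4, adjusted p = 0.0748) of 14 primitive endoderm genes (14.3% called). No gene of the fibroblast and feeder list (8 tested) or of the 7 Y-linked genes was called. Of 10 mesendoderm genes 1 was higher and 3 were lower (40%), of 9 neuroectoderm genes 2 were higher and 1 lower (33.3%), of 20 cholesterol genes 1 was higher and 2 were lower (15%), and of 12 genes of Polycomb repressive complex 2 only Mtf2 was called, higher in BaxKO. With the Rn45s term no trophoblast, mesendoderm, neuroectoderm, interferon and MHC or glycolysis gene was called. Without BaxKO 1, 3 and 4 no neuroectoderm or cholesterol gene was called, and Eomes alone of the mesendoderm genes. In that fit 2 of the 4 trophoblast calls were kept, and Oas1a, Psmb8, Ldha, Pfkm and Mtf2 were not called.

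Transcript length moved with the comparison. Of the quintile of genes with the shortest transcripts, 154 were higher in BaxKO and 681 lower, with a median log2 fold change of -0.30, and of the quintile with the longest, 755 were higher and 124 lower, with a median of 0.31. After a trend on length and GC content was removed from each library the counts were 347 and 288 for the shortest quintile and 335 and 364 for the longest, and 2619 of the 3373 genes then called were among the 3858. Of the 3373, 1648 were higher (10.1%). With the Rn45s term the counts were 13 and 34 for the shortest quintile and 15 and 19 for the longest. Without DKO 2, the line with the largest short-minus-long value among the 8, 1552 genes were called. The part of RNA quality or library preparation in these differences was not tested.

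**Figure D5:**
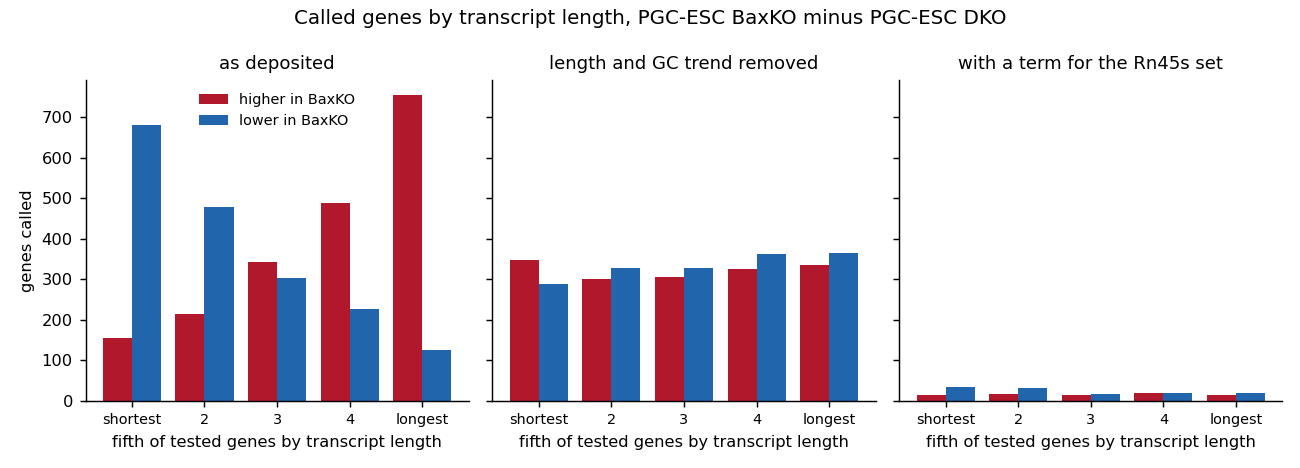
Number of genes called higher (red) or lower (blue) in PGC-ESC BaxKO than in PGC-ESC DKO in each quintile of the tested genes by transcript length, for the counts as deposited (left), with a length and GC trend removed (middle) and with a term for the Rn45s set (right). The shortest quintile holds 154 higher and 681 lower calls and the longest 755 and 124 as deposited, and with the trend removed they hold 347 and 288 and 335 and 364.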

How the data were processed

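Poly(A) RNA of the 8 PGC-ESC lines was sequenced, and the authors deposited 1 table of raw read counts per gene for 20 libraries (21361 genes). STAR 2.7.7a and mouse build mm10 are named, per the submitters' processing notes; the counting tool, strand setting and annotation behind the counts: not given in the sources used here. Counts were tested with edgeR 4.0.16 (R 4.3.3), by the two-sided quasi-likelihood F test with TMM scaling and the default filter on low counts (16363 genes kept). All 20 libraries entered with 1 coefficient for each of 7 groups (13 residual degrees of freedom), with Benjamini-Hochberg adjustment over all tested genes. CPM in the text is a count divided by the library total, except in counts of genes without overlap, which use TMM-scaled CPM. Beside the PGC-ESC, ESC BaxKO and ESC Host libraries, the fit held 1 ESC BaxHet library and libraries of epiblast-like cells (EpiLC). The latter are EpiLC Host 3 and 4 and EpiLC DKO 1 to 3. Their titles carry the names and numbers of ESC Host 3 and 4 and PGC-ESC DKO 1 to 3. Lines may thus have entered more than once, and no pairing was modelled. The p-values measure the spread between libraries within groups. Pairs of lines differed by more than counting error, with a chi-square per gene of 6.72 to 71.8 within the PGC-ESC groups. Intervals and floors cover counting error only. Transcript lengths are those of the longest GENCODE transcript. Coordinates are RefSeq's on GRCm38.p6, and 21240 symbols matched.

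Alternatives were other scalings, filters and sets of libraries, DESeq2 1.42.0, a covariate for X-linked level in the 15 ESC and PGC-ESC libraries and each line left out. Added after seeing the data were fits without BaxKO 1, 3 and 4 and without BaxKO 2 and 5, a term for libraries above 10000 CPM of Rn45s and the removal of a spline trend (5 degrees of freedom) on length and GC. Genes named are the targeted genes, the 8 with the smallest adjusted p in each direction among called genes that did not overlap, the 6 with the largest fold and at least 5 CPM, up to 3 called members of each of 27 lists, up to 6 genes of the PGC-ESC minus the ESC difference and up to 4 called within 5 Mb of each targeted gene. Other list members are named as part of a count. The members and lists were chosen with earlier results of these data known. The fit was tested on simulated data.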

Additional observations from a re-analysis of the deposited data

Results flagged for a closer look

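The PGC-ESC difference (BaxKO minus DKO) departed from the ESC difference (BaxKO minus Host) by a test of the difference itself in 7 of the genes named. For the EGFP reporter, read in the ESC BaxKO lines and at or near 0 in ESC Host, the departure was -16.34 on the log2 scale. It was 9.61 for Gm14295, 7.82 for AA467197, 6.21 for Gm14305, 4.26 for Spic, 2.94 for Slc30a4 and 2.38 for Gm14410, all of which were low in PGC-ESC DKO and not in ESC Host.

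Single libraries stood apart from their group in 15 of 185 groups of values. The nominal rate is about 1 in 20. The genes were picked from these data and are read in the same libraries, so the count is a description and shows no excess. In the PGC-ESC BaxKO lines, BaxKO 5 was lowest for Igf2r (116.7 CPM), Mtf2 (410.3 CPM) and Zscan18 (12.02 CPM). BaxKO 2 was highest for Kit (431 CPM) and Gm14410 (24.6 CPM), and BaxKO 4 was highest for Lefty2 (481 CPM). In the ESC Host lines, Host 4 was highest for Bax (533 CPM), Ftl1 (5393 CPM), Tcl1 (74.8 CPM), Ddx3y (5.77 CPM) and Eif2s3y (7.41 CPM). Host 1 was highest for Prdm14 (116.2 CPM) and Crxos (8.56 CPM), and Host 2 was highest for Krt18 (11.4 CPM) and lowest for Gc (4.66 CPM).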

How the results depend on the processing

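The count of 3858 calls moved to 204 with a term for the Rn45s set, 323 with that term and the length and GC trend removed, 939 in 15 libraries with the X-linked covariate (2826 in those 15 without it), 1519 without BaxKO 1, 3 and 4, 1570 without DKO 2 and with the trend removed, 224 for a minimum fold of 2 and 1385 at an adjusted p under 0.01. Leaving out each line in turn gave 1552 (without DKO 2) to 4198. Deviations of same-numbered lines from their group means correlated at -0.15, -0.12 and 0.01. These values are too few to decide whether lines with the same replicate number share a batch. A fit of the 8 lines with the replicate number as a block called 418 (3597 in those 8 without the block). The 821 ESC calls moved to 399 in the fit of 15 libraries, 1423 by DESeq2, 224 at 0.01 and, with each line left out, 182 (without ESC BaxKO 2) to 1015; leaving out ESC BaxKO 1 gave 245 and ESC Host 3 gave 537. The 527 calls shared in direction moved to 279 in 15 libraries, 108 and 158 with the Rn45s term without and with the trend removed, 877 by DESeq2, 159 at 0.01 and 159 to 583 with a line left out. The 13 genes of the PGC-ESC minus the ESC difference moved to 854 without BaxKO 2 and 5, 74 by DESeq2 and 7 with the Rn45s term, and to 9 to 18 with a line left out. The causes were not tested.

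Of 99 genes named, 35 kept their direction and call with the Rn45s term and 55 without BaxKO 1, 3 and 4. Directions turned for 8 genes, 3 of them called. Bbc3 was 0.023 with the trend removed, 0.16 also without DKO 2, 0.11 with the Rn45s term and 0.14 with both. Fn1 was -0.073 without BaxKO 2 and 5, -0.050 with the trend removed and -0.21 also without DKO 2. Vim was 0.56 with the X-linked covariate, 0.40 without BaxKO 1, 3 and 4, 0.0042 with the trend removed and no DKO 2, 1.07 and 1.09 with the Rn45s term without and with the trend removed, and -0.26 to 0.090 with a line left out. Of called genes, Prdm14 was -0.043 with the X-linked covariate, Ube3a -0.12 with the trend removed and Mvd 0.049 with the Rn45s term and trend removed. The Y-linked Ddx3y and Eif2s3y were -0.22 and -0.24 with the replicate block, -12.53 and -11.80 without BaxKO 2 and 5, and -0.42 and -0.21 with the trend removed and no DKO 2. With a line left out Ddx3y ran from -0.26 to 13.06 and Eif2s3y from -0.17 to 12.44. Depth limits Gm14295, Ubd and the Usp17l copies, which had few or no reads in a group.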

Other observations

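Families grouped by gene symbol, a grouping made after the values were seen, are given beside the 11.4% of all genes lower and 12.2% higher in BaxKO. Of 94 cytosolic ribosomal protein genes (Rpl and Rps), 51 were lower in BaxKO and 3 higher, of 78 mitochondrial ribosomal protein genes 40 were lower and none higher, and of 97 genes of the respiratory chain and ATP synthase 50 were lower and 1 higher. Of 49 proteasome subunit genes 20 were lower and none higher. Of 309 solute carrier genes 64 were higher and 14 lower, and of 35 homeobox cluster (Hox) genes 6 were higher and none lower. These families differ in transcript length, with a median of 1128 bases for cytosolic ribosomal proteins and 3380.5 bases for solute carriers. Without DKO 2, 6 cytosolic ribosomal protein genes, 5 mitochondrial ribosomal protein genes, 10 respiratory chain genes and 4 proteasome genes were lower. With the length and GC trend removed, 31 cytosolic and 26 mitochondrial ribosomal protein genes, 24 respiratory chain genes and 11 proteasome genes were lower, and 58 solute carriers were higher and 17 lower. With the Rn45s term, 1 cytosolic ribosomal protein gene was lower and none of the other 3 families had a lower call, and 3 solute carriers were higher and 1 lower. Of the Hox genes 6 were higher with the trend removed, 2 without DKO 2 and none with the Rn45s term.

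Among the lines, log CPM profiles correlated at 0.986 to 0.988 within BaxKO 1, 3 and 4 and at 0.988 between BaxKO 2 and 5, and at 0.961 to 0.977 between these sets. Correlations were 0.977 to 0.984 within DKO. Correlations of BaxKO 2 and 5 with the DKO lines ran from 0.950 to 0.975 and those of BaxKO 1, 3 and 4 from 0.945 to 0.962. These are across genes within pairs of libraries and carry no test. In a principal component analysis of the 8 lines, the component with 45.8% of the variance placed BaxKO 1, 3 and 4 at 48.0 to 59.2, BaxKO 2 at 19.8, BaxKO 5 at -1.37 and the DKO lines at -71.6 to -55.7.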
